A study of Mus musculus with 7 samples.

Results

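Basement membrane and vascular matrix genes were described in cultured B16F10 mouse melanoma cells and in mouse dermal endothelial cells (MDEC). The set is a fixed list of 41 genes for type IV, V, VI, XV and XVIII collagens, laminin chains, nidogens, heparan sulphate proteoglycans, fibulins, fibronectin and other matrix proteins, and its members were found by gene symbol in the array annotation. Of these 41 genes, 39 had a probe set of their own among 19938 genes measured, and Fbn1 and Loxl2 were not analysed here. Expression was measured in total RNA with the Affymetrix Mouse Gene 1.0 ST platform, on 7 arrays of 1 sample each. The PECAM1+ group was B16F10 clones A2, A3, A4 and A5 (n = 4), and the PECAM1- group was clone A1 and the parental B16F10 population (n = 2). MDEC, also labelled PECAM positive, were 1 array of endothelial cells. They were kept in DMEM with an endothelial growth supplement kit, and the B16F10 samples in DMEM with 10% FBS, so that cell type and medium cannot be told apart in any comparison with them. B16F10 is a pigmented melanoma line that carries no label of a transgene or treatment here, each clone is a single derived line, and the labels do not say how the clones were obtained. Separate cultures are not stated for the samples of a group either, so the p-values rest on a spread between samples that may be technical. In bulk RNA such as this, fewer cells of a kind and less RNA per cell cannot be told apart.

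The basement membrane is a thin sheet of matrix that underlies endothelium and epithelium. Laminin trimers, built of an alpha, a beta and a gamma chain, and type IV collagen form its networks, and nidogens and the proteoglycan perlecan join them. Vessel endothelium is known for the laminin chains alpha 4 and alpha 5 with beta 1 and gamma 1, and tumour cells can make basement membrane proteins as well. Beyond this sheet lie collagens V and VI, fibronectin, fibulins and matricellular proteins, which bind cells and growth factors.

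Pecam1, the adhesion receptor that sorts the groups, averaged 11.03 ± 0.03 on the log2 scale in the PECAM1+ clones (SD, n = 4), against 5.27 in parental cells and 5.43 in A1, and was 11.72 in MDEC. All 8 melanocyte markers checked, such as Tyrp1 and Dct, were at least 4-fold lower in MDEC than in B16F10, and 8 of 9 endothelial markers were at least 4-fold higher, Cldn5 being the exception (7.82 in MDEC). Fibroblast and mural cell markers, whose cells also make matrix, had a mean log2 level over 14 genes of 6.01 in MDEC, against 5.75 to 5.99 in the PECAM1+ clones, 5.93 in parental cells and 5.65 in clone A1. In MDEC Thy1 (10.06) was the 1 gene of these 14 at least 4-fold above B16F10, while 8 of the 14 were under 6. Col3a1 (7.58 in MDEC against 6.69 to 6.94 in B16F10), Pdgfra (5.92 against 5.46 to 5.69) and Dpt (4.07 against 3.68 to 3.80) were also above every B16F10 array. Des (5.36 against 7.18 to 7.34) and Pdgfrb (6.58 against 7.21 to 8.51) were below. Dcn, Lum, Col1a1 and Col1a2, at 5.05, 3.06, 7.42 and 7.50 in MDEC, were within the B16F10 range. Lists of leukocyte and platelet markers and of keratinocyte markers had means of 5.40 and 5.49 in MDEC, and none of their genes passed 4-fold. Lymphatic markers were mixed, with Lyve1 at 12.16, Pdpn at 10.76 and Flt4 at 8.91 in MDEC and Prox1 and Reln both at 5.75. Clone A1 stood apart from the other B16F10 arrays: 4089 genes passed between the PECAM1+ clones and A1, where 2 passed against parental cells. Without 1 PECAM1+ clone the count against A1 ran from 2108 (without A5) and 2208 (without A3) to 3526, and that against parental cells was 0 or 1. These counts come from fits with each PECAM1- sample alone, made because parental cells are a population and A1 is a clone. The fibroblast and mural list includes Col1a1, Col1a2 and Col3a1, which are themselves matrix genes.

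The DNA at the annotated starts of 5 members is shown because results below turn on these genes. The sequences are from RefSeq (GRCm38.p6), read 5′ to 3′ on the strand of the gene. Capitals mark matches, on either strand, to any of 4 short motifs: the TATA-like TATAAA, the CCAAT box, the GC box GGGCGG and the ETS-like AGGAAG, of which no matches overlapped here. Lamb1, the laminin beta 1 chain, Fbln2, the elastic-fibre and basement membrane protein fibulin-2, and Tnc, the matricellular protein tenascin-C, are shown as the 250 bases before the start, at chr12:31265043-31265292 (+), chr6:91212514-91212763 (+) and chr4:64047016-64047265 (-). For Tnc the first of 2 annotated starts in the table was used. Col4a1 and Col4a2, the type IV collagen alpha 1 and alpha 2 chains, lie head to head on opposite strands, and their annotated transcripts overlap by the 22 bases at chr8:11312805-11312826. These bases, which lie just inside both starts and not before them, are shown on the strand of Col4a2.
Lamb1: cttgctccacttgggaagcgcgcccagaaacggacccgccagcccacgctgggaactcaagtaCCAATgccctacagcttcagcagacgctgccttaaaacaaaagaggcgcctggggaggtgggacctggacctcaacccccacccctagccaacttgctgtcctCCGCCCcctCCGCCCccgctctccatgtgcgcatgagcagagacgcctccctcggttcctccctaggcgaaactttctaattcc
Fbln2: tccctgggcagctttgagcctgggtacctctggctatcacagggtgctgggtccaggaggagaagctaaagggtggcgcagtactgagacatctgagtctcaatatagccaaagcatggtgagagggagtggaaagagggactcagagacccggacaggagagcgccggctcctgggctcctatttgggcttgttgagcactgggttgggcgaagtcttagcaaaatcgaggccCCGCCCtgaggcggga
Tnc: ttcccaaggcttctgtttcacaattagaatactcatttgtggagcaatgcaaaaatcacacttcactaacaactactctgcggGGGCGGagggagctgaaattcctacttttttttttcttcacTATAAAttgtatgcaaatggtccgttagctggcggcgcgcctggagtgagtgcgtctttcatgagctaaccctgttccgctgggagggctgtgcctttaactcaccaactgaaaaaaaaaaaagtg
Col4a1 and Col4a2: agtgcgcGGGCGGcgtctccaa
A GC box lay within each of these 4 stretches, at 16 bases before the start of Fbln2 and at 75 and 84 bases before that of Lamb1. Tnc alone of the 4 held TATAAA, 126 bases before the start used, and Lamb1 alone held a CCAAT box, 187 bases before its start. A total of 29 members had promoter windows (37 windows). GGGCGG was in 22 of the 37 (59.5%), against 32.7% of all 32851 windows of 250 bases, AGGAAG in 43.2% against 29.5%, CCAAT in 24.3% against 33.8% and TATAAA in 10.8% against 12.4%. These matches describe letters and do not show binding.

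**Figure D1:**
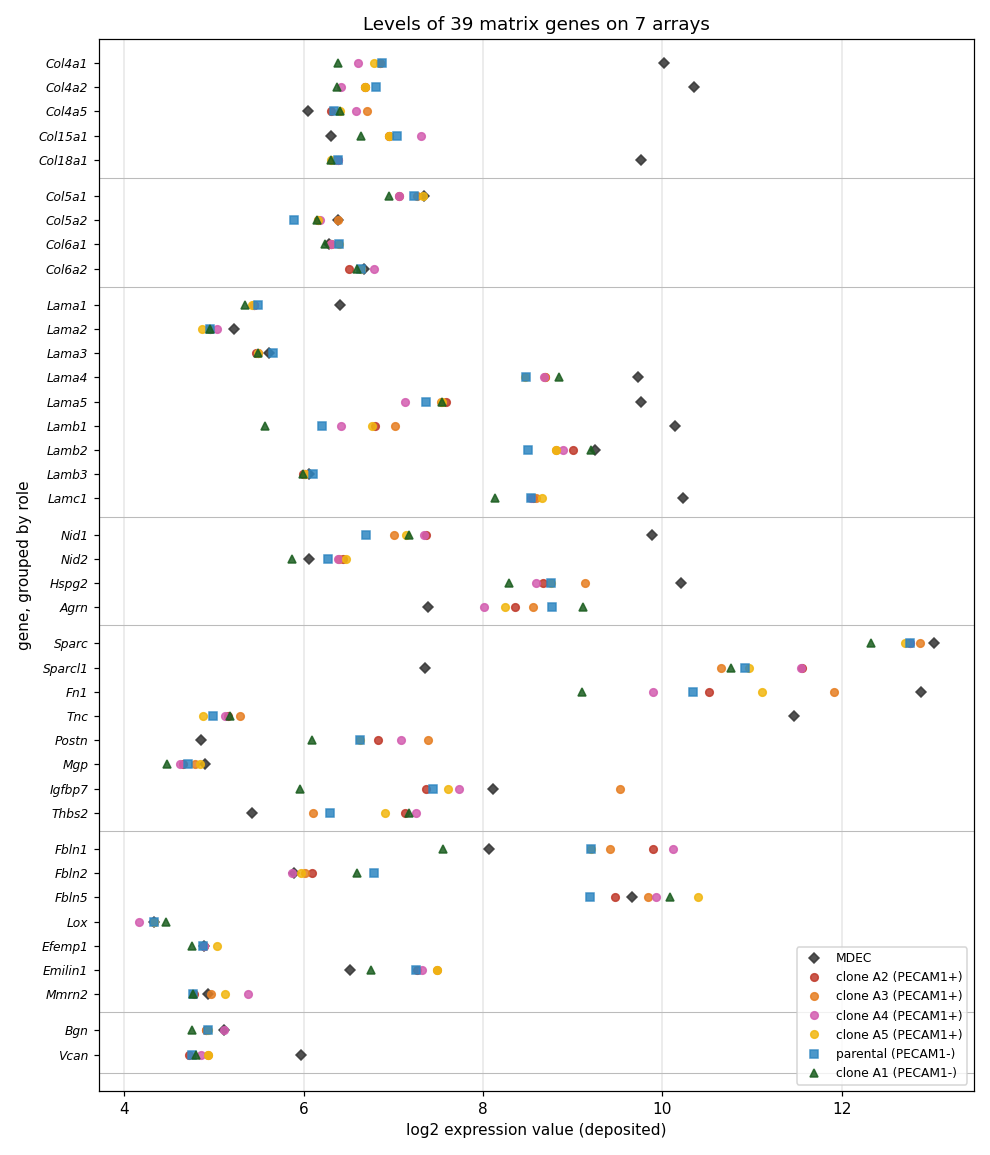
Deposited log2 expression values (x axis) of the 39 measured members (y axis, grouped by role) on each of the 7 arrays. MDEC (diamonds) lie far to the right of all B16F10 arrays for Col4a1, Col4a2, Col18a1, Lamb1, Nid1 and Tnc and far to the left for Sparcl1, and clone A1 (triangles) is the lowest B16F10 array for 20 members.

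Between PECAM1+ clones and PECAM1- samples, no matrix gene passed the test. The members with the largest differences, Igfbp7, Fbln1 and Fn1 (1.35, 1.28 and 1.14 on the log2 scale), varied widely between samples, while Fbln2 and Agrn were lower and Lamb1 and Nid2 higher in every PECAM1+ clone than in both PECAM1- samples. With limma and Benjamini-Hochberg adjustment over all 19938 genes, 0 of 39 members had an adjusted p under 0.05, where 2 genes in all (0.01%) did. At an unadjusted p under 0.05 there were 4 members (10.3%), Lamb1, Nid2, Agrn and Fbln2, near the 9.18% of all genes. The median log2 difference was 0.12 over the members and 0.00 over all genes, and 31 of 39 members were higher in the PECAM1+ clones, against 50.4% of all genes. The PECAM1+ and PECAM1- values did not overlap for 9 members (23.1%, against 16.4% of all genes). Of these, Col5a2, Lamb1, Nid2, Postn, Efemp1, Emilin1 and Mmrn2 lay higher in the PECAM1+ clones (7 members, 17.9%, against 7.73% of all genes), and Agrn and Fbln2 lay lower (5.13%, against 8.68%). These shares count a gap of any size. The lowest clone and parental cells were at 6.6299 and 6.6295 for Postn and at 7.2624 and 7.2508 for Emilin1. They were at 4.8824 and 4.8729 for Efemp1 and at 4.7783 and 4.7658 for Mmrn2, genes under 6 on every array.

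Fbln2 had the smallest p of the members. It was at 6.09, 6.01, 5.87 and 5.97 in clones A2 to A5, against 6.78 in parental cells and 6.60 in clone A1. All 4 PECAM1+ clones were thus below both PECAM1- samples, and the spread within the clones (SD 0.09, n = 4) was small beside the gap. The difference was -0.70 ± 0.08 (SE), with a limma adjusted p of 0.228. It was -0.80 ± 0.09 from parental cells alone and -0.61 ± 0.09 from clone A1 alone. Fbln2 passed against clone A1 and in neither of the other comparisons, although its difference from clone A1 was the smallest of them. Far more genes passed against clone A1, which makes the adjusted threshold easier to reach there. The difference was therefore not particular to clone A1. MDEC, at 5.89, lay among the PECAM1+ clones. The clone and MDEC values lay around 6, the level used to filter dim genes, and have no detection call.

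Agrn encodes agrin, a heparan sulphate proteoglycan of basement membranes known for clustering acetylcholine receptors at the nerve-muscle junction. It was at 8.35, 8.56, 8.01 and 8.25 in clones A2 to A5, against 8.77 in parental cells and 9.12 in clone A1. The groups did not overlap, and MDEC were lower than every B16F10 array at 7.38. The difference of PECAM1+ clones from PECAM1- samples was -0.65 ± 0.18 (SE; limma adjusted p = 0.436), -0.47 ± 0.22 from parental cells (limma adjusted p = 0.496) and -0.83 ± 0.22 from clone A1 (limma adjusted p = 0.0776). Over the 11 other settings tried, the difference from clone A1 ran from -0.91 to -0.73, and it did not pass in most of them.

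Among laminin chains, Lamb1 had the largest difference. It was at 6.79, 7.02, 6.41 and 6.76 in clones A2 to A5, against 6.21 in parental cells and 5.57 in clone A1. Every PECAM1+ clone was above both PECAM1- samples, and clone A4 was the nearest to them. The difference was 0.86 ± 0.23 (SE; limma adjusted p = 0.436), 0.54 ± 0.24 from parental cells (limma adjusted p = 0.480) and 1.17 ± 0.24 from clone A1 (limma adjusted p = 0.0438). Its partner Lamc1, the gamma 1 chain shared by most laminins, was at 8.56, 8.59, 8.54 and 8.66 in clones A2 to A5, against 8.54 in parental cells and 8.13 in clone A1. Parental cells lay among the clones for Lamc1, and clone A1 alone was low. The difference was 0.25 ± 0.13 (SE) from both PECAM1- samples, 0.05 ± 0.07 from parental cells and 0.45 ± 0.07 from clone A1 (limma adjusted p = 0.537, 0.969 and 0.0216). The beta 2 chain gene Lamb2 averaged 8.88 ± 0.09 in the PECAM1+ clones (SD, n = 4), against 8.50 in parental cells and 9.20 in clone A1, the highest B16F10 array. The alpha chain genes Lama4 and Lama5 ranged from 8.47 to 8.69 and from 7.13 to 7.59 in the PECAM1+ clones, against 8.48 and 7.36 in parental cells and 8.85 and 7.54 in clone A1, with no separation of the groups. Lama1, of the early embryonic laminin, stayed between 5.35 and 5.49 over the 6 B16F10 arrays. Lama2, a muscle laminin chain, was at 4.87 to 5.03, and the epithelial chain genes Lama3 and Lamb3 were at 5.46 to 5.66 and 5.99 to 6.10. Differences of these last 4 genes were between -0.09 and 0.02.

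The nidogens link laminin to type IV collagen. Nid2 was at 6.44, 6.39, 6.38 and 6.47 in clones A2 to A5, against 6.27 in parental cells and 5.87 in clone A1. The groups did not overlap and the clones spread little (SD 0.04, n = 4). Nid2 differed by 0.35 ± 0.11 (SE) from the PECAM1- samples (limma adjusted p = 0.463), by 0.15 ± 0.05 from parental cells (limma adjusted p = 0.306) and by 0.55 ± 0.05 from clone A1 (limma adjusted p = 0.00685). Nid1 followed another order, with parental cells lowest at 6.70, clone A1 at 7.18 and the PECAM1+ clones at 7.36, 7.01, 7.34 and 7.14. Its difference was 0.28 ± 0.17 (SE) from both PECAM1- samples, 0.52 ± 0.17 from parental cells and 0.04 ± 0.17 from clone A1 (limma adjusted p = 0.546, 0.316 and 0.936). Hspg2, which encodes perlecan, was at 8.67, 9.13, 8.59 and 8.76 in clones A2 to A5, against 8.76 in parental cells and 8.29 in clone A1. Parental cells lay within the range of the clones for Hspg2, and the difference was 0.26 ± 0.21 (SE) from both PECAM1- samples, 0.02 ± 0.24 from parental cells and 0.50 ± 0.24 from clone A1 (limma adjusted p = 0.612, 1.00 and 0.245).

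The type IV collagen genes of the head-to-head pair took a similar order over the B16F10 arrays. Col4a1 was at 6.85, 6.85, 6.60 and 6.79 in clones A2 to A5, against 6.87 in parental cells and 6.38 in clone A1. Col4a2 was at 6.68, 6.68, 6.42 and 6.68 in the same clones, against 6.81 in parental cells and 6.37 in clone A1. For both genes parental cells were highest, clone A1 lowest and clone A4 next to lowest, and the differences of PECAM1+ clones from PECAM1- samples were 0.15 ± 0.16 and 0.03 ± 0.15 (SE). Col4a5, the X-linked alpha 5 chain, ranged from 6.31 to 6.71 over B16F10. Col15a1 and Col18a1, whose products release the anti-angiogenic fragments restin and endostatin, ranged from 6.64 to 7.30 and from 6.30 to 6.38. Genes for collagen V, which sets fibril diameter, and collagen VI, which forms beaded filaments, differed by 0.09 (Col5a1), 0.21 (Col5a2), 0.01 (Col6a1) and 0.02 (Col6a2), and none passed in any of the 3 comparisons.

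**Figure D2:**
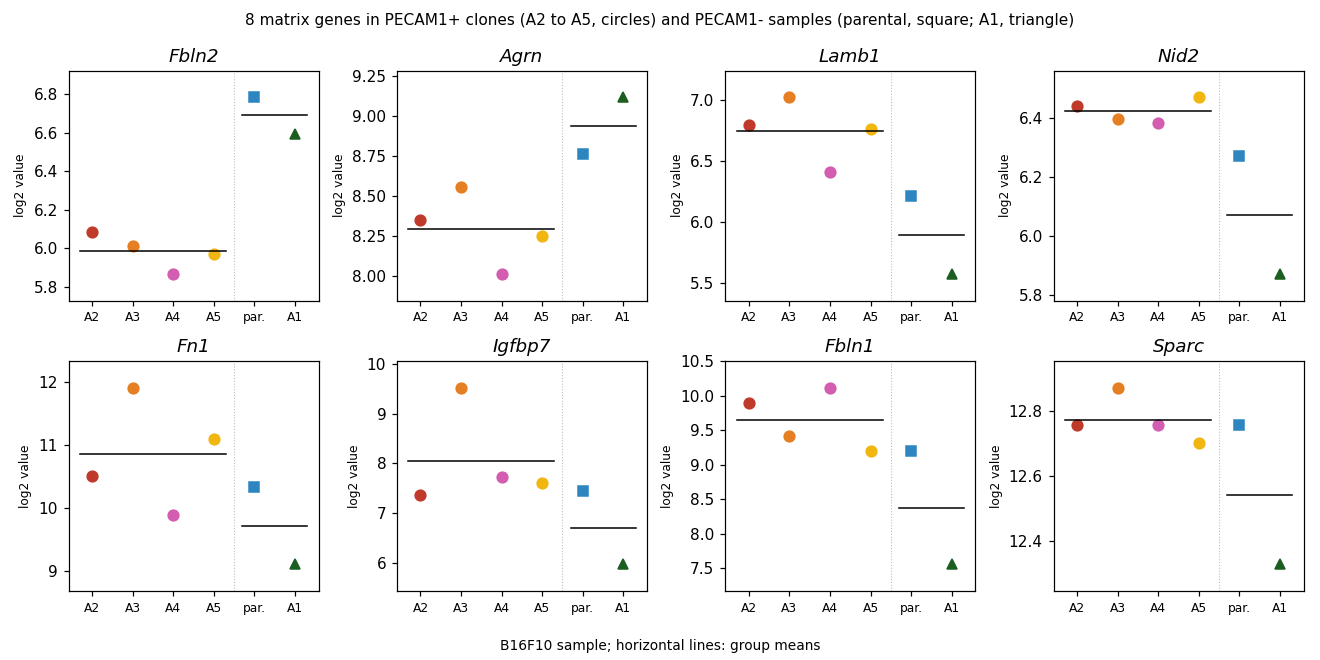
Deposited log2 values (y axis, scaled for each gene) of 8 members in the 6 B16F10 samples (x axis): PECAM1+ clones A2 to A5 at left, then parental cells and clone A1, with horizontal lines at the group means. Fbln2 and Agrn lie lower in all 4 PECAM1+ clones than in both PECAM1- samples, Lamb1 and Nid2 lie higher, and for Fn1, Igfbp7, Fbln1 and Sparc clone A1 is the lowest sample.

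Clone A1 differed from the PECAM1+ clones in 7 members. The laminin chains Lamb1 and Lamc1, Nid2, Sparc, Fbln1 and Emilin1 were higher in the PECAM1+ clones and Fbln2 was lower, by limma with a lone PECAM1- array that is assumed to vary like the clones. These 7 of 39 are 17.9%, where 20.5% of all genes passed, so the share was near that of all genes. At an unadjusted p under 0.05 there were 12 members (30.8%, against 34.2% of all genes), and 28 members (71.8%, against 51.9%) were higher in the PECAM1+ clones by any amount. The 6 higher members are 15.4%, against 9.33% of all genes, and the 1 lower member is 2.56%, against 11.2%. Clone A1 was the lowest of the 6 B16F10 arrays for 20 of 39 members (51.3%, against 28.9% of all genes) and the highest for 4 (10.3%, against 26.4%). Among the 20 were 3 of 5 type IV, XV and XVIII collagen genes, 3 of 9 laminin chains and 5 of 8 matricellular and adhesive glycoprotein genes. Against parental cells alone, 0 of 39 members passed by limma, where 2 genes in all (0.01%) did, and 7 members (17.9%, against 13.5% of all genes) had an unadjusted p under 0.05. By any amount, 26 members (66.7%, against 49.0% of all genes) were higher in the PECAM1+ clones than in parental cells. Fibroblast and mural markers also had their lowest mean in clone A1, as given above, and their part in these differences was not tested. The PECAM1+ clones are shared by both comparisons.

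Fbln1 encodes fibulin-1, which binds fibronectin and laminin. It was at 9.89, 9.41, 10.12 and 9.20 in clones A2 to A5, against 9.20 in parental cells and 7.56 in clone A1. Parental cells met the lowest clone, while clone A1 was far below, and the difference from clone A1 was 2.10 ± 0.41 (SE), or 4.29-fold (limma adjusted p = 0.0381). It was 1.28 ± 0.51 from both PECAM1- samples and 0.46 ± 0.41 from parental cells (limma adjusted p = 0.537 and 0.834). Sparc, a collagen-binding counter-adhesive protein, was at 12.76, 12.87, 12.76 and 12.70 in clones A2 to A5, against 12.76 in parental cells and 12.33 in clone A1. It differed from both PECAM1- samples by 0.23 ± 0.12 (SE), from parental cells by 0.01 ± 0.07 and from clone A1 by 0.44 ± 0.07 (limma adjusted p = 0.537, 0.999 and 0.0252). Emilin1, an elastic-fibre glycoprotein, was at 7.26, 7.49, 7.32 and 7.49, against 7.25 in parental cells and 6.75 in clone A1, with differences of 0.39 ± 0.16 (SE) from both PECAM1- samples, 0.14 ± 0.12 from parental cells and 0.64 ± 0.12 from clone A1 (limma adjusted p = 0.537, 0.815 and 0.0340). For all 3 genes clone A1 alone stood low.

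Of these 7 calls against clone A1, Nid2 passed under every setting tried (limma adjusted p from 0.00355 to 0.0324). The others were lost when a PECAM1+ clone was left out, although no direction changed. Fbln1 and Emilin1 were lost without any of clones A2, A3, A4 or A5 (limma adjusted p up to 0.102 and 0.0900), Lamb1 without A2, A3 or A5 (up to 0.131) and Sparc without A2, A4 or A5 (up to 0.0767). Lamc1 was lost without A2 or A3 (limma adjusted p up to 0.0704) and Fbln2 without A3 or A5 (up to 0.0814). The number of members called then ran from 2 without clone A2 to 9 without clone A4, with 3 without A3 and 3 without A5.

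**Figure D3:**
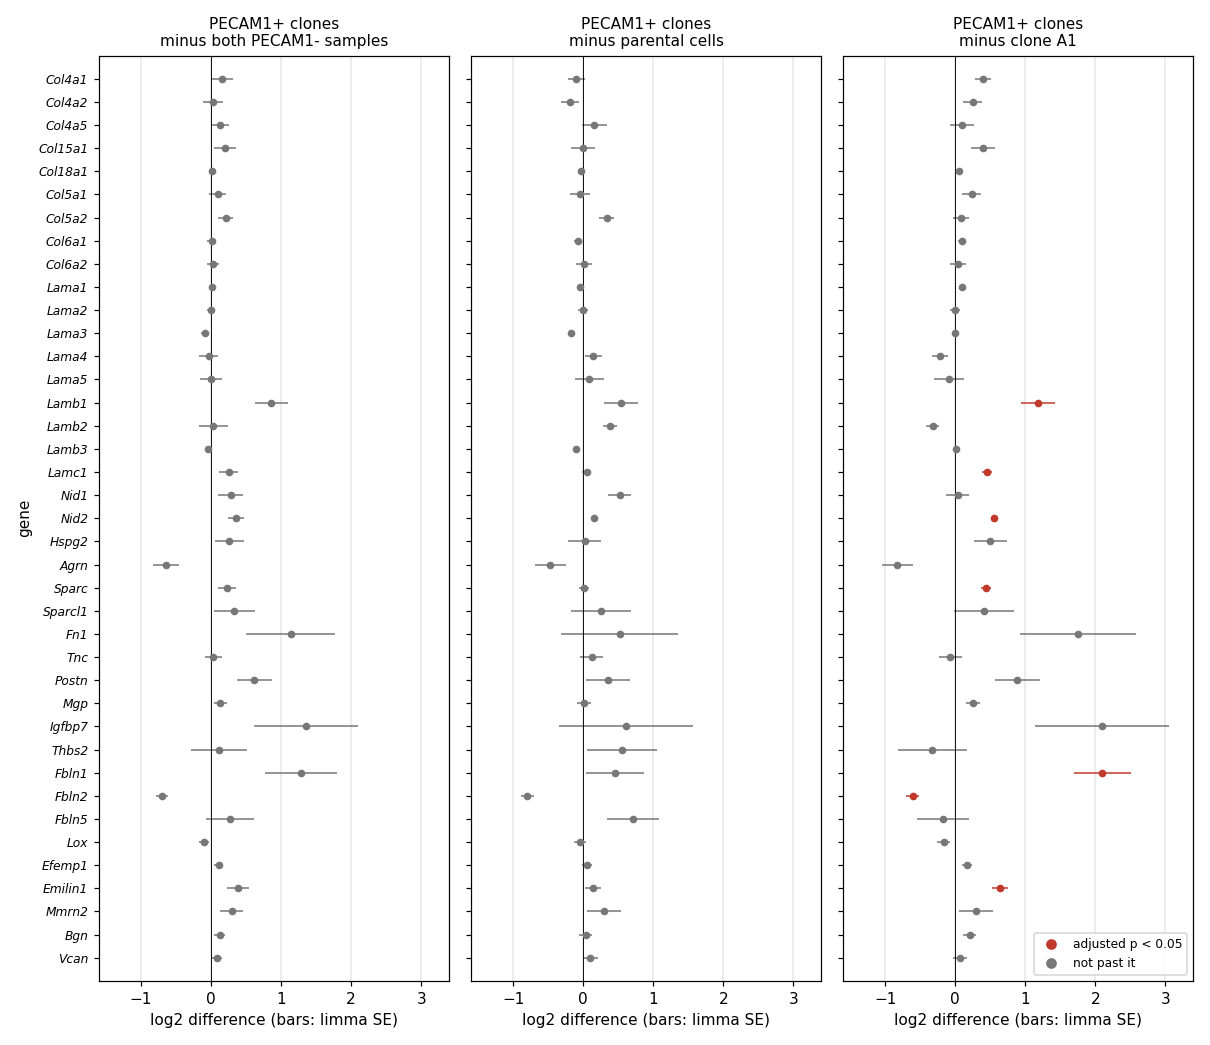
Log2 differences (x axis) of the 39 members (y axis) between the PECAM1+ clones and both PECAM1- samples (left), parental cells (middle) or clone A1 (right), with limma standard errors as bars. Red points, those with an adjusted p under 0.05, occur in the right panel alone, where 6 lie above 0 and Fbln2 below.

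The PECAM1+ clones also varied among themselves, most of all in adhesive glycoproteins. The range over clones A2 to A5 was at least 2-fold for 3 members (7.69%, against 1.27% of all genes), and the median SD over the 4 clones was 0.12 for the members and 0.10 for all genes. Fn1, which encodes fibronectin, was at 10.52, 11.91, 9.90 and 11.11 in clones A2 to A5, against 10.34 in parental cells and 9.11 in clone A1. Clone A3 was highest and clone A4 below parental cells, so the groups overlapped. The difference of 1.14 ± 0.64 (SE) from the PECAM1- samples did not pass (limma adjusted p = 0.537), nor did that from parental cells, 0.52 ± 0.83 (limma adjusted p = 0.980), or that from clone A1, 1.75 ± 0.83 (limma adjusted p = 0.243). Igfbp7, an insulin-like growth factor binding protein deposited in vessel matrix, was at 7.37, 9.53, 7.73 and 7.60, against 7.45 in parental cells and 5.96 in clone A1. Clone A3 stood well above the other B16F10 arrays and clone A1 well below. The difference was 1.35 ± 0.74 (SE) from both PECAM1- samples and 0.61 ± 0.96 from parental cells (limma adjusted p = 0.537 and 0.980). From clone A1 it was 2.09 ± 0.96, and over the 11 other settings tried it ran from 1.60 (without clone A3) to 2.32 (without clone A2). It did not pass in the main fit or in most of these settings.

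Thbs2, the angiogenesis inhibitor thrombospondin-2, was the third of these, at 7.13, 6.10, 7.25 and 6.90 in clones A2 to A5, against 6.29 in parental cells and 7.17 in clone A1. Here clone A3 was the lowest array, with parental cells next. Clone A3 was the highest B16F10 array for 11 members (28.2%, against 12.6% of all genes), among them Fn1, Igfbp7, Lamb1, Hspg2, Sparc and Postn. Sparcl1, the SPARC relative hevin, was at 11.55, 10.66, 11.55 and 10.96 in clones A2 to A5, against 10.92 in parental cells and 10.77 in clone A1, with clones A2 and A4 on top. Postn, the matricellular protein periostin, was at 6.82, 7.39, 7.08 and 6.63, against 6.63 in parental cells and 6.10 in clone A1. Fbln5, an elastic-fibre fibulin, was at 9.47, 9.84, 9.93 and 10.39, against 9.19 in parental cells and 10.09 in clone A1, so that parental cells were lowest.

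Several members had low values on every array. Lama2, Lama3, Lox, Bgn, Efemp1, Mgp, Vcan and Mmrn2 stayed under 6 on all 7 arrays, as did 35.3% of all genes, and no detection calls go with these values. Lox, the collagen and elastin cross-linking enzyme lysyl oxidase, ranged from 4.16 to 4.46 over B16F10 and was 4.34 in MDEC. Mmrn2, the endothelial matrix protein multimerin-2, was at 4.93 in MDEC, within the B16F10 range of 4.77 to 5.38. Mgp, an inhibitor of matrix calcification, was at 4.90 in MDEC, and Bgn, the small proteoglycan biglycan, at 5.11.

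MDEC had higher values of Tnc, Fn1, 3 collagen genes, 2 laminin chains and Nid1 than every B16F10 array, and a lower value of Sparcl1, each at least 4-fold from the B16F10 average. No test was made of MDEC, which are 1 array of another cell type. A gene was counted when its MDEC value lay beyond every B16F10 array and differed by 4-fold or more from the average of the PECAM1+ and PECAM1- means. By this rule 9 of 39 members (23.1%, against 4.73% of all genes) were counted. Of these, 8 were higher in MDEC (20.5%, against 2.72% of all genes) and 1 was lower (2.56%, against 2.01%). The members were chosen with earlier results of these data known, so these shares only describe them. At 2-fold there were 16 members (41.0%, against 13.3% of all genes), and 26 members (66.7%, against 52.9%) lay outside the B16F10 range by any amount. The same 9 members were counted at 4-fold when any 1 B16F10 array was left out. Thy1 and 3 lymphatic markers were also high in MDEC, as given above, and their part in these differences was not tested.

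Tnc had the largest difference, with 11.46 in MDEC against 4.88 to 5.29 in B16F10, a measured fold of 82.5. The B16F10 values were under 6 and have no detection call, so the size of this fold is uncertain. Tenascin-C is a matricellular protein of remodelling tissue, and all 6 melanoma arrays had low values for it. Col4a1 was at 10.02 in MDEC against 6.38 to 6.87 in B16F10 (9.99-fold), and Col4a2 at 10.35 against 6.37 to 6.81 (13.5-fold), so both genes of the head-to-head pair were higher. Col18a1 was at 9.76 in MDEC against 6.30 to 6.38 (10.6-fold). The related collagen gene Col15a1 went the other way, at 6.31 in MDEC against 6.64 to 7.30 in B16F10, and Col4a5 was at 6.05 against 6.31 to 6.71.

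Of the laminins, Lamb1 was at 10.14 in MDEC against 5.57 to 7.02 in B16F10 (14.1-fold), and Lama5 at 9.76 against 7.13 to 7.59 (4.95-fold). Lamc1 (10.23 against 8.13 to 8.66) and Lama4 (9.73 against 8.47 to 8.85) were also above every B16F10 array, at 3.41-fold and 2.12-fold, below the 4-fold rule. The genes for the alpha 4, alpha 5, beta 1 and gamma 1 chains had MDEC values above the B16F10 range, but so did Lama1, Lama2 and Lamb2. By any amount, 52.9% of all genes lay outside that range. Lamb2 was at 9.25 in MDEC, barely above clone A1, and Lama3 and Lamb3 at 5.61 and 6.06 were inside the B16F10 range. Lama1 was at 6.40 in MDEC against 5.35 to 5.49, and the dim Lama2 at 5.23 against 4.87 to 5.03.

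The linking proteins split by gene. Nid1 was at 9.88 in MDEC against 6.70 to 7.36 in B16F10 (6.99-fold), while Nid2 was at 6.05, inside the B16F10 range of 5.87 to 6.47. Hspg2 was at 10.20 in MDEC against 8.29 to 9.13 (2.92-fold), whereas Agrn was at 7.38 against 8.01 to 9.12. Perlecan and agrin, both heparan sulphate proteoglycans, thus lay on opposite sides of B16F10. Fn1 was at 12.89 in MDEC against 9.11 to 11.91 (6.05-fold over the B16F10 mean), with clone A3 the nearest melanoma array.

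Several matricellular genes had lower values in MDEC. Sparcl1 was at 7.35 in MDEC against 10.66 to 11.55 in B16F10, 12.7-fold lower, and was the 1 member counted as lower. Postn was at 4.86 against 6.10 to 7.39, Thbs2 at 5.42 against 6.10 to 7.25 and Emilin1 at 6.51 against 6.75 to 7.49, all below every B16F10 array but within 4-fold. Sparc was high everywhere, at 13.03 in MDEC against 12.33 to 12.87. Vcan, the large proteoglycan versican, was at 5.97 in MDEC against 4.72 to 4.94. Fbln1 (8.07), Fbln2 (5.89), Fbln5 (9.66) and Igfbp7 (8.11) were inside the B16F10 range, as were Col5a2 (6.38), Col6a1 (6.28) and Col6a2 (6.68), and Col5a1, at 7.35, was just above the highest B16F10 array (7.33). All of those inside except Fbln5 were inside through 1 outer array, such as clone A1 (7.56) for Fbln1 and clone A3 (9.53) for Igfbp7.

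**Figure D4:**
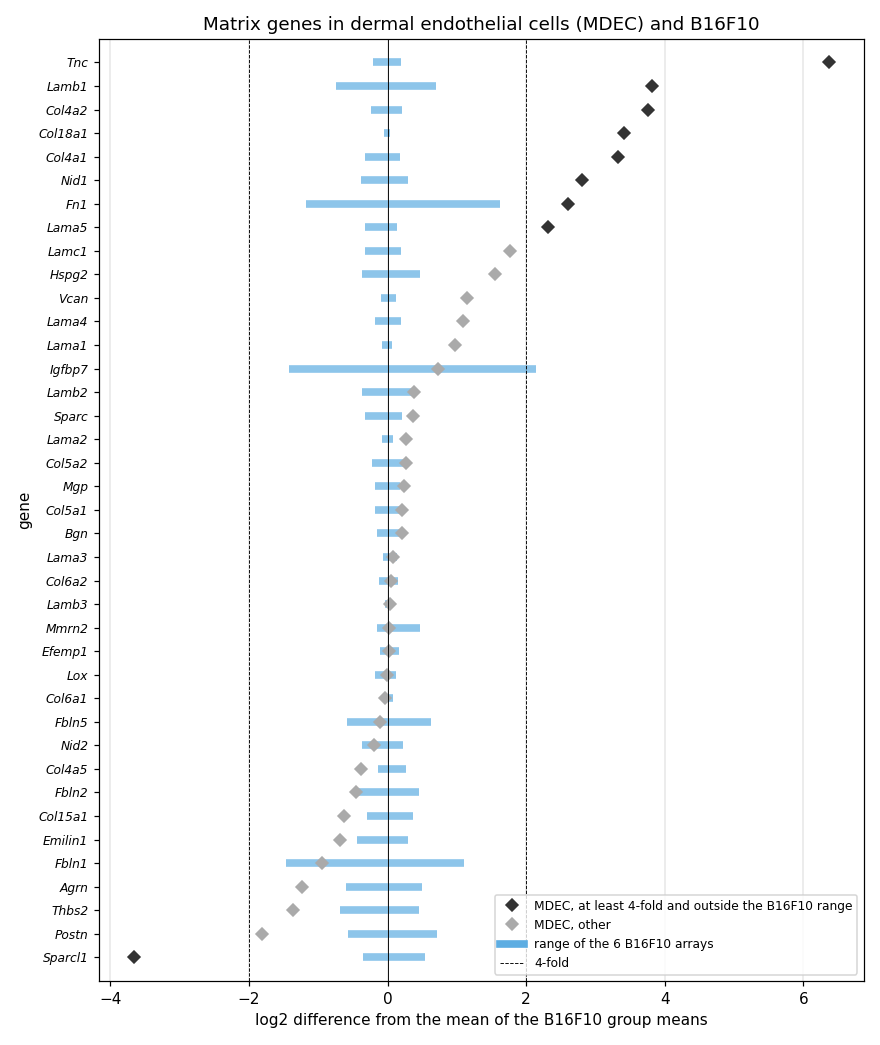
Log2 difference of MDEC (diamonds, x axis) from the average of the PECAM1+ and PECAM1- means for the 39 members (y axis, sorted), with the range of the 6 B16F10 arrays as blue bars and 4-fold as dashed lines. Dark diamonds mark the 9 members at least 4-fold apart and outside that range, 8 to the right from Lama5 to Tnc and Sparcl1 to the left.

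Other genes of matrix biology were read from 4 lists. None of their members passed by limma between PECAM1+ clones and PECAM1- samples, or against parental cells alone, and the median differences from the PECAM1- samples were 0.03 for other basement membrane components (20 genes), 0.05 for interstitial matrix (30), 0.09 for collagen processing and cross-linking enzymes (16) and 0.14 for matrix receptors (21). At an unadjusted p under 0.05 there were 2, 3, 2 and 1 genes of these lists against the PECAM1- samples, and 2, 2, 3 and 3 against parental cells. Over the 87 genes measured these are 9.20% and 11.5%, where 9.18% and 13.5% of all genes had such a p. Against clone A1, where 20.5% of all genes passed, the counts were 4, 4, 4 and 4 (18.4% of the 87), and the genes not given by the rule for names were chosen after their values were seen. The collagen processing genes that passed as higher in the PECAM1+ clones were Serpinh1, the collagen chaperone HSP47, by 1.11 ± 0.08 (SE; limma adjusted p = 0.00529), Crtap, of the prolyl 3-hydroxylase complex, by 1.32 ± 0.17 (limma adjusted p = 0.0156) and Pcolce, an enhancer of procollagen cleavage, by 1.69 ± 0.20 (limma adjusted p = 0.0132), while P4ha3, a prolyl 4-hydroxylase subunit gene, differed by -0.24 (limma adjusted p = 0.0440). P4ha3 was at 5.33 to 5.64 over the B16F10 arrays, under 6 on every one. Serpinh1 was at 10.60, 10.75, 10.60 and 10.64 in clones A2 to A5, against 10.16 in parental cells and 9.54 in clone A1. The 4 clones lay above both PECAM1- samples, and the difference was 0.80 ± 0.18 (SE) from both and 0.48 ± 0.08 from parental cells (limma adjusted p = 0.404 and 0.159). Crtap and Pcolce differed by 0.69 ± 0.35 and 1.01 ± 0.38 from both PECAM1- samples and by 0.06 ± 0.17 and 0.33 ± 0.20 from parental cells, and none of these 4 differences passed (limma adjusted p from 0.521 to 0.980).

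Among receptors, the laminin receptor subunit Itga6, the dystroglycan gene Dag1 and the syndecan gene Sdc1 were higher than in clone A1, by 1.20, 0.90 and 1.32 (limma adjusted p = 0.00597, 0.0139 and 0.0495), and the integrin beta 3 gene Itgb3 differed by -0.89 (limma adjusted p = 0.0358). Hmcn1, a large basement membrane protein, was higher by 1.42 and the interstitial collagen gene Col1a2 by 0.72 (limma adjusted p = 0.0445 and 0.0452), while the TGF-beta binding protein gene Ltbp3 differed by -0.97 (limma adjusted p = 0.0247). The remaining calls were Fras1, Frem1, Egflam, Fbn2 and Tgfbi, with differences of 0.12 to 0.23 from clone A1 at values under 6 on every B16F10 array. Thbs1, the matricellular thrombospondin-1, was at 8.64, 11.76, 9.30 and 10.99 in clones A2 to A5, against 8.19 in parental cells and 7.48 in clone A1. Col8a1, a collagen of vessel walls, was at 7.09, 9.67, 7.30 and 9.24, against 8.54 in parental cells and 5.89 in clone A1. For both, as for Fn1, clones A3 and A5 were the highest of the B16F10 arrays. The differences from the PECAM1- samples were 2.34 ± 0.95 (SE) for Thbs1, 1.11 ± 1.09 for Col8a1 and 1.08 ± 0.61 for the syndecan gene Sdc3, 0.75 ± 0.21 for the matrilin gene Matn2, 0.63 ± 0.28 for the collagen-binding integrin gene Itga1, 0.46 ± 0.29 for the transglutaminase gene Tgm2 and -0.42 ± 0.18 for Papln, and none passed (limma adjusted p from 0.436 to 0.675). Hmcn1, Ltbp3 and Itga6, given above against clone A1, differed from the PECAM1- samples by 1.16 ± 0.24, -0.65 ± 0.20 and 0.70 ± 0.28 (SE). None of them passed there (limma adjusted p = 0.383, 0.453 and 0.537). From parental cells they differed by 0.91 ± 0.30, -0.34 ± 0.15 and 0.20 ± 0.09. Ecm1, which was named for its MDEC value of 9.74 against 7.91 to 8.97 in B16F10, differed by 0.02 ± 0.37 from the PECAM1- samples.

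In MDEC, 10 of these 87 genes were at least 4-fold higher (11.5%, against 2.72% of all genes) and 4 lower (4.60%, against 2.01%). The lists were chosen with earlier results of these data known, so these shares describe the lists and test nothing. Itga5, Itgb3, Ddr1, Ddr2 and Sdc4 are named among these genes after their values were seen. Pxdn, the peroxidasin that cross-links type IV collagen, was at 10.69 in MDEC against 4.99 to 5.12 in B16F10 (48.7-fold, uncertain since the B16F10 values were dim). The netrin gene Ntn4, whose product binds laminin, was at 8.25 against 5.82 to 6.06 (5.12-fold). Mmrn1, a relative of Mmrn2, was at 8.43 against 4.03 to 4.19 (19.6-fold, uncertain since its B16F10 values were dim too). Thbs1 was at 12.25 against 7.48 to 11.76 (9.49-fold) and the lysyl oxidase relative Loxl4 at 8.82 against 5.84 to 6.46 (6.76-fold). Of the receptors, Cd93, which binds multimerin-2, was at 11.11 against 3.88 to 4.24, Clec14a at 9.41 against 4.20 to 4.53 and the laminin-binding integrin gene Itga3 at 10.53 against 5.67 to 6.87. Itga5 and Itgb3, subunits of fibronectin and vitronectin receptors, were 6.81-fold and 8.22-fold higher in MDEC. The genes lower in MDEC were Pcolce, at 7.35 against 9.89 to 11.75, the collagen receptor kinase genes Ddr1, at 6.04 against 9.67 to 10.32, and Ddr2, at 6.36 against 9.29 to 10.29, and the syndecan gene Sdc4, at 7.89 against 9.69 to 10.52.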

How the data were processed

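The authors deposited 1 log2 expression value per probe set and array, for 35557 probe sets on 7 arrays, and Partek is named per the submitters' processing notes, with its version not given in the sources used here, nor the summarisation, background correction, normalization or build. The log2 scale of the deposited values was read from their range (1.39 to 13.5) and the array medians (6.12 to 6.18). Of the probe sets, 21789 carried 1 gene symbol, and for the 999 genes with several probe sets the one with the highest mean was used, which left 19938 genes. Each measured member had 1 probe set. An identical value in at least 2 PECAM1+ clones occurred for 36.6% of genes and 14 of 39 members. PECAM1+ clones were compared with PECAM1- samples, parental cells or clone A1 with limma 3.58.1 in R 4.3.3 (lmFit, eBayes with trend), two-sided, with Benjamini-Hochberg adjustment over all genes and a threshold of 0.05. The fit was also run on simulated data in which every array had a spread drawn from that of the PECAM1+ clones. That run could not test whether a PECAM1- array varies like the clones. MDEC, with 1 array, were described by a 4-fold rule. Of the 4 lists of other matrix genes, up to 3 genes with the largest difference between PECAM1 groups and up to 3 with the largest difference of MDEC were named by rule. List genes without a probe set of their own were not analysed here. Normalization, probe set choice, a filter on means under 6, the eBayes settings, array weights and leaving out arrays were varied. The members and lists were chosen with earlier results of these data known. No detection calls were used. Precision is limited by how few arrays there are.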

Additional observations from a re-analysis of the deposited data

Results flagged for a closer look

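For 11 of 39 members (28.2%), 1 PECAM1+ clone lay far from the other 3 clones, by Dixon's criterion on the gap relative to the range of the 4. Chance flags about 1 in 20 groups, but 21.1% of all genes met the same criterion, and in 9 of the 11 members at least 2 of the other 3 clones had an identical deposited value. Clone A4 was the one apart for 5 of them: Col4a2 was at 6.42 against 6.68 in the other clones, Col15a1 at 7.30 against 6.95, Lama5 at 7.13 against 7.53 to 7.59, Lox at 4.16 against 4.34 and Bgn at 5.11 against 4.92 to 4.94. Clone A5 was apart for 4: Col6a1 was at 6.40 against 6.30, Lama1 at 5.43 against 5.44, Lama4 at 8.47 against 8.68 to 8.69 and Efemp1 at 5.03 against 4.88 to 4.89. Clone A3 was apart for Col5a2, at 6.39 against 6.16 to 6.18, and clone A2 for Lama3, at 5.46 against 5.49.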

How the results depend on the processing

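No member was called by limma between PECAM1+ clones and PECAM1- samples under quantile normalization, median centring, the filter on dim genes, another choice of probe sets, other eBayes settings, array weights, or when 1 PECAM1+ clone was left out. Leaving out 1 array gave from 0 to 7 members, with 7 without parental cells, which is the comparison with clone A1, and 0 without clone A1. Against parental cells alone, no alternative called a member, but these fits called almost no genes at all. They could therefore not show the members to be unchanged. Against clone A1 alone, leaving out a PECAM1+ clone gave 2 to 9 members, and the other settings gave 5 (all probe sets tested, where Lamb1 and Fbln1 were lost) to 8 (with Agrn gained). With fewer arrays the fit has fewer degrees of freedom, and no difference of a member followed in these fits changed sign. For MDEC, 16 members were at least 2-fold apart and outside the B16F10 range, in place of 9 at 4-fold, adding Agrn, Hspg2, Lama4, Lamc1, Postn, Thbs2 and Vcan. The same 9 were counted under all other settings tried. The median SD of the members over the clones, 0.12, was 0.11 after median centring and 0.11 to 0.13 without 1 clone. No paired analysis was possible because the labels give no replicate numbers that link samples of the groups. Values near the low end of the scale have no detection call, and 2 PECAM1- samples of different kinds and 1 MDEC array limit every comparison.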
